A study of Mus musculus with 12 samples.

Results

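The genes described here are 40 of 19937 measured in the mouse olfactory epithelium whose RNA followed a 24 h curve with its fitted peak between circadian time (CT) 8 and CT12, late in the subjective day. They were chosen by measured values. For each gene, the log2 readings of 12 pools were fitted with a cosine and a sine of 24 h, and a gene entered when the curve held at least 0.64 of the variance (R squared) and peaked from CT8 to before CT12. Amplitude is measured from the middle of the curve to its crest, in log2 units. Of 19937 genes, 164 (0.823%) reached that R squared at any peak time and 53 (0.266%) had their peak in the window. From these 53, 13 were left out by name, namely the clock genes Ciart, Per2, Per3 and Usp2, the rhythmic genes Rnase1 and Fmo5, the odorant receptors Olfr1342 and Olfr697, and 5 predicted or cDNA-clone loci (Gm609, Gm6288, Gm7467, Gm10432 and 4933407L21Rik). The rule therefore leaves genes whose fitted peak lies in the same window as those of Ciart, Per2, Per3 and Usp2, without these clock genes themselves.

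The tissue came from 48 C57BL/6 males that had been kept in alternating light and darkness and then in constant darkness. Equal amounts of total RNA from 4 of them made 1 pool, and a pool was taken every 4 h from CT12 to CT56, so that 12 pools on 1 array each cover 6 phases of the day in 2 cycles. CT0 to CT12 is the subjective day, in which mice rest, and CT12 to CT24 the subjective night. No source used here gives the ages of the animals. Each phase has 2 pools that lie 24 h apart, so every error and p-value below reflects how pools differ, not how animals differ, and precision is limited by there being 12 arrays.

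In mammalian cells CLOCK and BMAL1 bind E-boxes in DNA and switch on genes that include the Period genes and the PAR bZIP factors, and the products of the Period and Cryptochrome genes then shut this activation off. Transcripts switched on through E-boxes are typically highest in the second part of the day, and those of the Period genes towards dusk. The olfactory epithelium holds sensory neurons, supporting cells, basal stem cells and glands, borders on ciliated respiratory epithelium, and keeps a clock of its own. As a check of the tissue, the 8 markers of mature sensory neurons on the list used here, among them Omp and Adcy3, were all measured, with probe means between 11.4 and 13.7.

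The pools correlated with one another at means from 0.975 (CT56) to 0.988, and the medians of their log2 readings lay between 7.81 and 7.92. Array weights, which limma estimates from how far a pool lies from the fit, were lowest for CT56 (0.332), CT52 (0.469) and CT32 (0.535). Of the means of the marker and pathway lists used here, that of 11 nasal gland markers varied most between pools. It lay 0.79 below its average at CT12 and 1.16 above it at CT44. Single transcripts were not ranked in this way. The samples are whole tissue, in which fewer cells of a type and less RNA per cell cannot be told apart.

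Every one of the 40 genes read above its own mean in the pools of CT12 and CT32, 37 did at CT36 and 35 at CT56. At CT44 and CT48 none of the 40 did. The highest reading fell at CT32 for 25 genes, at CT36 and at CT56 for 5 each, at CT12 for 4 and at CT52 for 1, Zfp3. The lowest fell at CT44 for 17 and at CT48 for 11. The crest and the trough of the set thus came from the same few pools in most genes. High readings in the CT8 and CT12 phases and low ones around CT20 and CT0 restate the rule. At CT32, 35 members also lay above their fitted curve. The median deviation over all genes was highest at CT32 as well (0.0476), and was -0.0177 at CT44, -0.0178 at CT48 and lowest at CT56 (-0.0307). The mean of the 8 mature sensory neuron markers was highest at CT12 (0.17) and CT32 (0.0988) and lowest at CT44 (-0.18). It was on the side of the median member in these pools and at CT40, and on the other side elsewhere, as at CT56 (-0.0949). Its fitted peak was CT10.37, with an R squared of 0.0915. Of the markers, 7 of 8 read higher in the CT8 and CT12 pools than in the CT20 and CT0 pools. The part of these neurons in the members' readings was not tested.

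**Figure D1:**
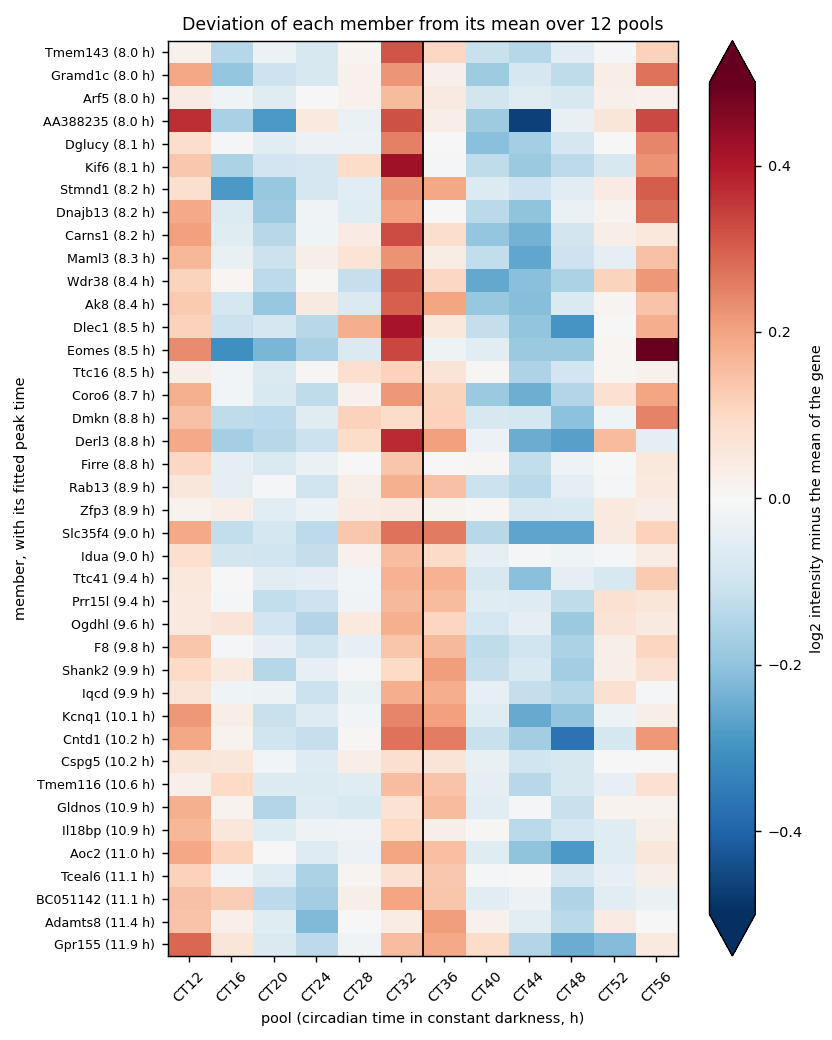
Deviation of each of the 40 genes (rows, ordered by fitted peak in h) from its own mean in the 12 pools (columns, circadian time in constant darkness), in log2 units, with colours capped at 0.5 either way and a vertical line between the cycles. The columns CT12 and CT32 are above the mean in all 40 rows, and CT44 and CT48 below it in all 40.

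Amplitudes were small, with a median of 0.15 and a range from 0.0525 for Zfp3 to 0.30 for Eomes, against a median of 0.0648 over all genes. The fitted peak stood between 1.08-fold and 1.53-fold above the trough, and over 1.5-fold in 2 genes, Eomes and AA388235. An amplitude of 0.2 or more was seen in 9 genes and one under 0.1 in 8. Of the members, 23 peaked from CT8 to before CT9, 14 of them before CT8.5, while 6 peaked in the hour from CT9, 7 in that from CT10 and 4 in that from CT11. The residual SD around the curve had a median of 0.071, against 0.134 over all genes, so the rule took in genes with small amplitudes where the scatter was small.

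In the limma fit of the 24 h curve, with Benjamini-Hochberg adjustment over all genes, 0 of the 40 had an adjusted p under 0.05, as 5 of all genes (0.0251%) did. The lowest adjusted p of a member was 0.329, for Cntd1. At an unadjusted p under 0.05 there were 33 of the 40, and 3.54% of all genes. These counts use the contrast that chose the genes and are a description. An R squared of 0.64 over 12 pools corresponds to an F test p of 0.0101, which 201 of 19937 genes would reach if no gene followed a curve and residuals were normal, against 164 that did. The pools of the CT8 and CT12 phases (CT12, CT32, CT36 and CT56) all read above the pools of the CT20 and CT0 phases (CT20, CT24, CT44 and CT48) in 38 of the 40 genes, and in 1.26% of all genes. The exceptions were AA388235 and BC051142. This, too, restates the choice of the genes.

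At the R squared limit, the lowest members were Dglucy at 0.642, Iqcd at 0.651 and Cspg5 at 0.655. Just below it lay Higd1b at 0.638, Cox7a1 at 0.637 and Ppef2 at 0.634, with amplitudes of 0.0921, 0.16 and 0.0864. At the edges of the window, Tmem143 was the earliest member at CT8.002 and Gpr155 the latest at CT11.91. Hsd17b11 just missed it at CT7.97 and Tmem45a2 at CT12.11. The limits cut through a continuous run of values.

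**Figure D2:**
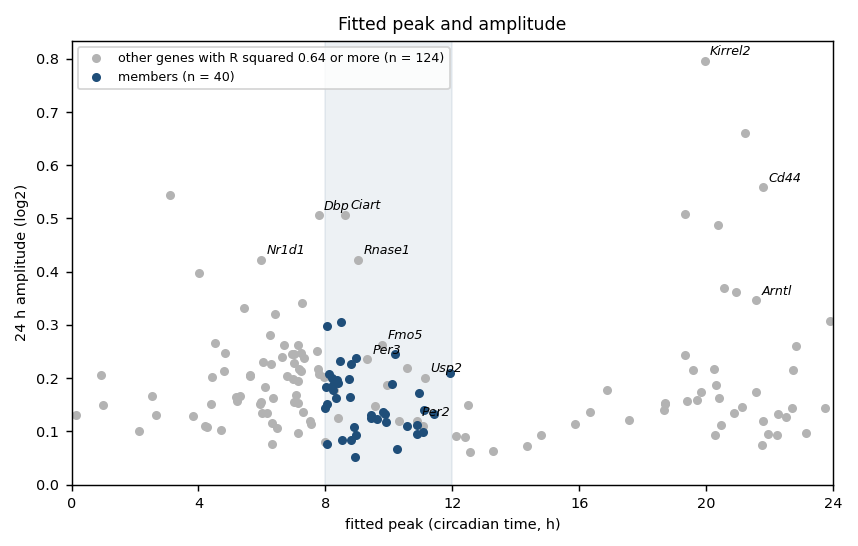
Fitted peak (circadian time, h) against 24 h amplitude (log2) for the 164 genes with an R squared of 0.64 or more, with the 40 members in blue, the other 124 in grey and the window from CT8 to CT12 shaded. The members lie at amplitudes up to 0.30, below the named clock genes Dbp and Ciart at 0.51. The named clock genes Per2 (0.12), Usp2 (0.20) and Per3 (0.24) lie within the range of the members.

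The left-out clock genes give the scale of a rhythm in the same pools. Ciart, a repressor of CLOCK and BMAL1, had an amplitude of 0.51 ± 0.07 (SE, 12 pools) with its peak at CT8.63, and Per3 one of 0.24 ± 0.05 at CT9.31. Per2, with 0.12 ± 0.04 at CT10.87, Tef, with 0.13 ± 0.05 at CT9.67, and Nr1d2, with 0.0748 ± 0.0403 at CT10.34, had amplitudes within the range of the members. Dbp, Hlf and Per1 peaked outside the window, at CT7.79, CT7.01 and CT13.43. Tef, Nr1d2 and Per1 fell under the R squared limit, at 0.498, 0.398 and 0.434. The mean of the 9 dusk clock genes that the rule bars by name peaked at CT9.17 with an amplitude of 0.21. The median member peak was CT8.93, but the rule itself holds it between CT8 and CT12, so its nearness is no separate result. Those 9 genes read highest at CT32 (0.22 above their mean) and lowest at CT44 (0.25 below), the pools that most often held the highest and the lowest reading of a member.

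Promoter sequences were searched for CACGTG, the core of the E-box that CLOCK and BMAL1 bind. RefSeq promoters of the build GRCm38.p6, each 250 bases before to 50 after an annotated transcript start, were held for 31 of the 40 members (39 promoters). The core stood in the promoters of 9 of these 31 genes (29.0%), against 10.2% of 13674 measured genes whose names the rule allows and 8.09% of all 27025 genes in the table. Counted by promoter, it stood in 10 of 39 (25.6%), against 7.15% of all 32851. It stood in 3 of 39 genes (7.69%) with peaks from CT4 to before CT8 and in 2 of 33 (6.06%) with peaks from CT16 to before CT24. No test was made of these shares, and a match is letters in a window, not a bound site. The 5 genes of the 9 with the largest amplitudes were Cntd1, Derl3, Coro6, Gramd1c and AA388235. Their sequences are shown with the core in capitals, in lower case otherwise, read 5′ to 3′ along the gene's strand. The first is the whole upstream promoter of Cntd1, the member with the lowest p.
Cntd1 (chr11:101278953-101279202, plus strand, the 250 bases upstream of the start): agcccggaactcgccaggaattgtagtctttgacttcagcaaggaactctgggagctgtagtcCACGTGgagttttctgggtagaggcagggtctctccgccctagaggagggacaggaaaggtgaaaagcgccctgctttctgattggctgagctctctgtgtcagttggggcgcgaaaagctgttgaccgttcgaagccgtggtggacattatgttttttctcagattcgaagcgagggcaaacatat
Derl3 (chr10:75893208-75893257, plus strand, upstream): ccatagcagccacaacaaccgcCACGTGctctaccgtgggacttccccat
Gramd1c, first start (chr16:44027996-44028045, minus strand, upstream): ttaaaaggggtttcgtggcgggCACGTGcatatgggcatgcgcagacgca
Gramd1c, second start (chr16:44016587-44016636, minus strand, upstream): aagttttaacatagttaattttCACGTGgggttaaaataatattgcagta
AA388235 (chr17:33981242-33981285, plus strand, upstream): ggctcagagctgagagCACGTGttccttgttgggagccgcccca
Coro6 (chr11:77463937-77463960, plus strand, within the first transcribed bases): agcaagttccgcCACGTGtttggt
In Cntd1 the core began 187 bases before the start, in Derl3 168, in AA388235 234 and in Gramd1c 78 and 178 before its respective starts, while in Coro6 it began 38 bases after it. In the other four genes it began 69 bases before the start in Arf5, 71 in Firre and 5 in Ogdhl, and Tceal6 held it 14 bases before and 6 after.

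Coro6 also held the related E′-box, CACGTT on either strand, 41 bases upstream, where it reads AACGTG along the gene's strand, in the following window.
Coro6 (chr11:77463848-77463897, plus strand, upstream): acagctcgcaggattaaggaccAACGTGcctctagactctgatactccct
The E′-box was found in 2 of the 31 genes, Coro6 and Ttc16 (6.45%, against 5.85% of measured genes). The D-box letters TTATGTAA and TTATGCAA were in 0 of them, against 0.834% and 0.870% of measured genes. The ROR core TAGGTCA was in Ogdhl, where it overlaps the E-box by 2 bases, and the cyclic AMP element TGACGTCA in Ttc16, each thus in 1 of 31 genes (3.23%), against 2.59% and 2.93% of measured genes. The RFX motif GTTGCCA was in Dlec1 and Stmnd1 and GTTGCTA in Ttc16 and Kif6, each in 2 of 31 genes (6.45%), against 4.81% and 4.01% of measured genes. Counts of these motifs other than the E-box were thus near the share of all genes. All motifs were searched on both strands. The median amplitude of the 9 genes with the E-box was 0.18 and that of the 22 without it 0.16, with ranges of 0.0763 to 0.30 and 0.0525 to 0.30, which overlap almost entirely.

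The genes were grouped by role after their values had been seen. The nuclear group held the largest amplitude and the smallest. Eomes encodes a T-box transcription factor of neural progenitors and of projection neurons of the brain. It read 8.53, 7.99, 8.06, 8.13, 8.22 and 8.63 from CT12 to CT32 and 8.27, 8.24, 8.11, 8.11, 8.30 and 8.93 from CT36 to CT56. It was high at CT12, CT32 and CT56 but not at CT36, and the 4 pools of the CT20 and CT0 phases stayed within 8.06 to 8.13. The amplitude was 0.30 ± 0.06 with a peak at CT8.48. The CT56 pool lay 0.33 above the curve, and without it the amplitude of Eomes was 0.23.

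Cntd1, a cyclin-like protein that acts in meiotic crossing over, had the lowest p of the 40 in the 24 h fit. Its readings were 7.31, 7.13, 7.02, 7.0005, 7.12 and 7.39 in the first cycle and 7.37, 7.01, 6.94, 6.75, 7.03 and 7.33 in the second. The 4 pools of the CT8 and CT12 phases lay within 7.31 to 7.39 and the 4 of the CT20 and CT0 phases within 6.75 to 7.02, with no overlap. The amplitude was 0.25 ± 0.04, the peak CT10.19 and R squared 0.833. Fitted alone, the first cycle gave a peak at CT9.87 and the second one at CT10.41. Maml3, a coactivator of Notch signalling, had an amplitude of 0.16 ± 0.04 at CT8.33. Firre, a long noncoding RNA of the X chromosome, read between 9.97 at CT44 and 10.24 at CT32. Pool by pool Firre read 10.20, 10.05, 10.03, 10.06, 10.10 and 10.24, then 10.10, 10.11, 9.97, 10.07, 10.09 and 10.15. Its amplitude was 0.0833 ± 0.0350 at CT8.81, so the groups were apart by a narrow gap, 10.10 against 10.07. Tceal6, a small protein related to elongation factor TFIIS, had 0.0985 ± 0.0352 at CT11.06, and the zinc finger gene Zfp3 had 0.0525 ± 0.0337 at CT8.94.

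Among membrane proteins, Slc35f4 belongs to a family that carries nucleotide sugars and related solutes. It read 7.35, 7.04, 7.07, 7.03, 7.30 and 7.43 in the first cycle and 7.42, 7.02, 6.90, 6.90, 7.20 and 7.28 in the second. The 4 CT8 and CT12 pools, at 7.28 to 7.43, were clear of the 4 CT20 and CT0 pools, at 6.90 to 7.07. The amplitude was 0.24 ± 0.04 with a peak at CT8.95.

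Gpr155, a cholesterol sensor of the lysosome, was the latest member. Its readings, 12.49, 12.26, 12.13, 12.07, 12.18 and 12.35, then 12.39, 12.29, 12.05, 11.95, 11.98 and 12.25, were highest at CT12 in the first cycle and at CT36 in the second, and lowest at CT24 and CT48. The amplitude was 0.21 ± 0.04, the peak CT11.91 and R squared 0.857, the highest of all members together with Coro6. It met the rule after 8 of 12 single removals of a pool. In the first cycle alone the peak was at CT11.16 and in the second at CT12.55.

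Kcnq1, a pore subunit of a potassium channel of epithelia and heart, read 9.004, 8.82, 8.68, 8.73, 8.77 and 9.03, then 8.99, 8.73, 8.54, 8.59, 8.76 and 8.82. Its 2 peaks were alike in time, CT10.03 and CT10.17, although the CT56 pool, at 8.82, was level with that of CT16. The amplitude was 0.19 ± 0.04 at CT10.10. Gramd1c, a protein that binds sterols at contacts between membranes, read 10.51, 10.12, 10.21, 10.23, 10.33 and 10.53, then 10.34, 10.13, 10.23, 10.18, 10.35 and 10.58. High readings came at CT12, CT32 and CT56, while CT36 was level with CT28 and CT52. The amplitude was 0.18 ± 0.04 at CT8.01, at the early edge of the window. The transmembrane proteins Tmem143 and Tmem116 had amplitudes of 0.14 ± 0.04 at CT8.002 and 0.11 ± 0.04 at CT10.58.

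**Figure D3:**
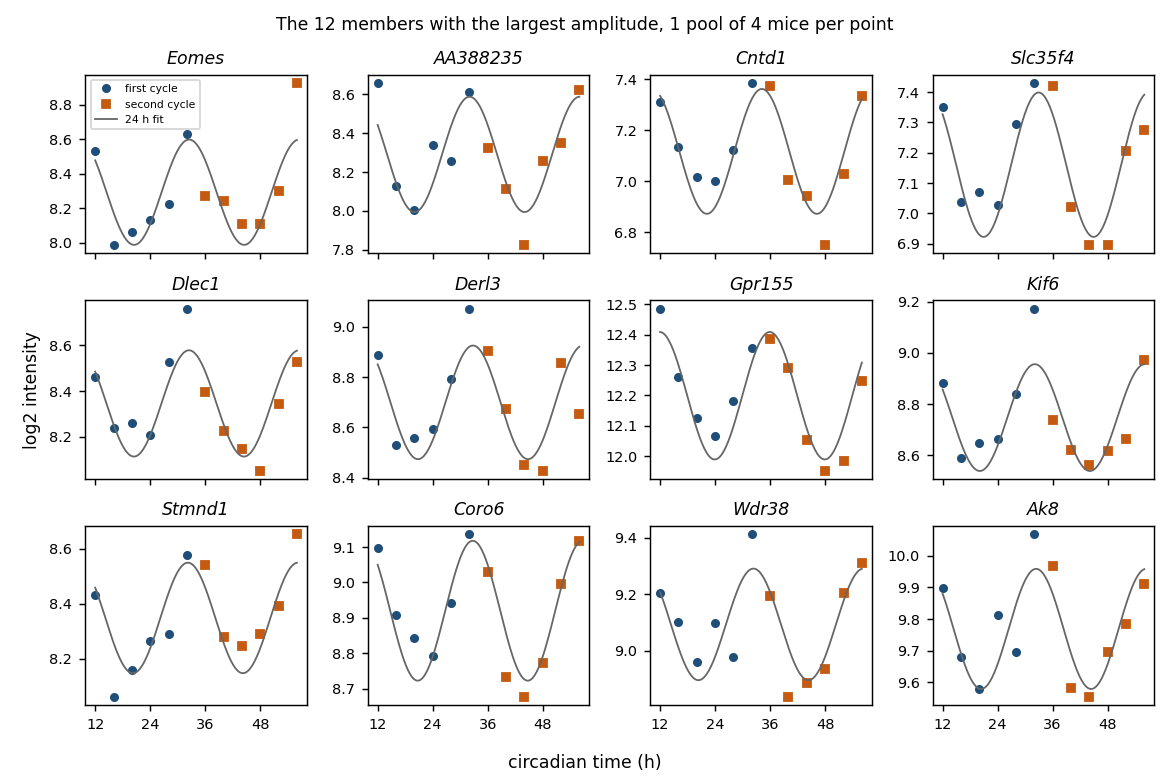
Log2 intensity in each pool against circadian time (h) for the 12 members with the largest amplitude, with circles for the first cycle, squares for the second, 1 pool of 4 mice per point and the 24 h fit as a line. In Cntd1 and Coro6 the points follow the line in both cycles, while in Eomes the CT56 pool lies 0.33 above it.

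Genes of the cytoskeleton and of vesicle traffic had a median amplitude of 0.13. Coro6, a coronin that binds actin, read 9.10, 8.91, 8.84, 8.79, 8.94 and 9.14, then 9.03, 8.73, 8.68, 8.77, 8.996 and 9.12. Its CT8 and CT12 pools lay within 9.03 to 9.14 and its CT20 and CT0 pools within 8.68 to 8.84, with no overlap. The amplitude was 0.20 ± 0.04 at CT8.74. Stmnd1, a protein with a stathmin domain of the kind that binds tubulin, read 8.43, 8.06, 8.16, 8.26, 8.29 and 8.58, then 8.54, 8.28, 8.25, 8.29, 8.39 and 8.65. It was the member that read highest in the second cycle relative to the first, by 0.10, and had an amplitude of 0.20 ± 0.05 at CT8.22. Shank2, a scaffold of the postsynaptic density, read 10.99, 10.94, 10.74, 10.84, 10.88 and 10.99, then 11.10, 10.77, 10.81, 10.71, 10.91 and 10.96. Its CT12 and CT36 readings were high together with those of CT32 and CT56, and the amplitude was 0.13 ± 0.04 at CT9.89. The small GTPases Rab13, which acts in membrane traffic to cell junctions, and Arf5, which acts at the Golgi apparatus, had 0.11 ± 0.04 at CT8.91 and 0.0763 ± 0.0352 at CT8.04.

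Of genes whose products are secreted, sit in the matrix or work in the secretory and lysosomal path, Derl3 had the largest amplitude. It belongs to the machinery that draws misfolded proteins out of the endoplasmic reticulum. The readings were 8.89, 8.53, 8.56, 8.59, 8.79 and 9.07, then 8.90, 8.67, 8.45, 8.43, 8.86 and 8.65. The CT56 pool, at 8.65, was low against CT32 at 9.07, 24 h earlier, and still above the 4 CT20 and CT0 pools, at most 8.59. The amplitude was 0.23 ± 0.05 at CT8.79, and without CT56 the amplitude of Derl3 was 0.28. Dmkn, a protein secreted by epithelia, had an amplitude of 0.17 ± 0.04 at CT8.77. F8, coagulation factor VIII, had 0.14 ± 0.04 at CT9.82, with its CT8 and CT12 pools within 7.83 to 7.89 and its CT20 and CT0 pools within 7.57 to 7.68. Adamts8, a protease of the extracellular matrix, had 0.13 ± 0.04 at CT11.41. Il18bp, which neutralises interleukin 18, had 0.0945 ± 0.0363 at CT10.90. Idua, a lysosomal enzyme that degrades glycosaminoglycans, had 0.0922 ± 0.0366 at CT8.98, and the proteoglycan Cspg5 had 0.0665 ± 0.0347 at CT10.24.

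Metabolic enzymes included Carns1, the synthase of carnosine, a dipeptide abundant in olfactory sensory neurons. It read 11.98, 11.72, 11.63, 11.75, 11.81 and 12.10 in the first cycle and 11.86, 11.58, 11.54, 11.68, 11.80 and 11.83 in the second. The high reading at CT32 had no match at CT56, which stood level with CT36 and CT52. The amplitude was 0.19 ± 0.04 at CT8.25. Aoc2, a copper amine oxidase, had 0.17 ± 0.04 at CT10.96, Dglucy, a mitochondrial enzyme that breaks down D-glutamate, 0.15 ± 0.04 at CT8.05, and Ogdhl, a relative of a subunit of oxoglutarate dehydrogenase, 0.12 ± 0.04 at CT9.63.

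In 5 genes the product is a part of motile cilia or is needed for them. Dlec1, a protein of the axoneme, read 8.46, 8.24, 8.26, 8.21, 8.53 and 8.76, then 8.40, 8.23, 8.15, 8.05, 8.35 and 8.53. The CT32 pool stood out, and CT28 was as high as CT56. Kif6, a kinesin needed for the cilia of ependymal cells, read 8.88, 8.59, 8.65, 8.66, 8.84 and 9.17, then 8.74, 8.62, 8.56, 8.62, 8.67 and 8.97. It, too, was highest at CT32. Dnajb13, a protein of the radial spokes, read 10.45, 10.19, 10.08, 10.24, 10.20 and 10.46, then 10.26, 10.12, 10.06, 10.23, 10.27 and 10.54. Here CT12, CT32 and CT56 were the highest and CT36 was no higher than CT52. Ak8, an adenylate kinase of cilia, read 9.90, 9.68, 9.58, 9.81, 9.70 and 10.07, then 9.97, 9.58, 9.55, 9.70, 9.78 and 9.91. The amplitudes were 0.23 ± 0.05 at CT8.45 for Dlec1, 0.21 ± 0.05 at CT8.12 for Kif6, 0.18 ± 0.04 at CT8.24 for Dnajb13 and 0.19 ± 0.05 at CT8.40 for Ak8. Kif6 has a second probe with another pattern, and with the mean of both probes the amplitude of Kif6 was 0.0755. Iqcd, a subunit of the complex that regulates dynein along the axoneme, had 0.12 ± 0.04 at CT9.92.

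Motile cilia are also borne by cells of the neighbouring respiratory epithelium, and markers of those cells varied between pools. On a list of 8 such markers (Foxj1, Dnah5, Dnah9, Dnaic1, Dnaic2, Tekt1, Ccdc39 and Spag6), all of them measured and none a member, 0 had an adjusted p under 0.05 in the limma 24 h fit and 2 an unadjusted one. Their mean peaked at CT4.54 with an amplitude of 0.11, earlier than any of the 5 genes. It lay 0.17 above its average at CT32, 0.19 at CT56 and 0.16 at CT28, and 0.14 below it at CT12 and 0.18 at CT16. In the 4 pools of the CT8 and CT12 phases the marker mean ranged from -0.14 to 0.19, and in those of the CT20 and CT0 phases from -0.0984 to 0.0780, so the marker groups overlapped. The 5 cilia genes on average were 0.30 above their mean at CT32, 0.16 at CT56 and 0.13 at CT12, and 0.18 below at CT44. At CT36 the cilia genes were 0.0848 above their mean and the markers 0.0938 below, and at CT20 and CT24 the markers were above their mean (0.0315 and 0.0780) while the cilia genes were below theirs. The cilia genes and the marker mean were thus both above their means at CT28, CT32 and CT56. Both were below them at CT16, CT40, CT48 and CT44, where the markers were so by only 0.0012. They were on opposite sides of their means at CT12, CT20, CT24, CT36 and, by a small margin, CT52. Single markers differed, with fitted peaks from CT2.16 for Dnah5 to CT11.29 for Spag6. At CT12 only Dnaic1 read above its mean, 8.30 against 8.18, and Dnah5 lay furthest below, 7.93 against 8.67. At CT36 Dnaic1, Dnaic2 and Spag6 were above their means and the others below. Dnaic1, Dnaic2 and Tekt1 were highest at CT32. Of the markers, 4 of 8 read higher in the CT8 and CT12 pools than in the CT20 and CT0 pools. The part of ciliated cells in the readings of these 5 genes was not tested.

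**Figure D4:**
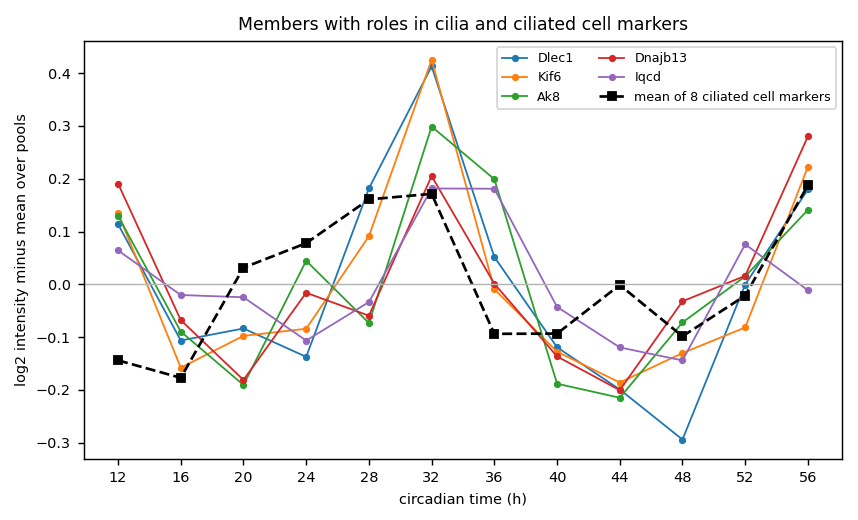
Deviation from the mean over pools (log2) against circadian time (h) for the 5 members with roles in cilia (coloured lines) and for the mean of 8 ciliated cell markers (black dashed line, squares). Both are high at CT32 and CT56, and at CT12 the marker mean is 0.14 below its average while the 5 genes are above theirs.

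The remaining 7 genes have no role assigned here. AA388235 had the second largest amplitude, 0.30 ± 0.06 at CT8.05. It read 8.66, 8.13, 8.004, 8.34, 8.26 and 8.61 from CT12 to CT32 and 8.32, 8.11, 7.82, 8.25, 8.35 and 8.62 from CT36 to CT56. The CT36 pool at 8.32 fell just below the CT24 pool at 8.34, so its groups overlapped. Wdr38, a protein of WD repeats, read 9.20, 9.10, 8.96, 9.10, 8.98 and 9.41, then 9.20, 8.84, 8.89, 8.94, 9.20 and 9.31. Its readings at CT12, CT36 and CT52 were alike, and the amplitude was 0.20 ± 0.05 at CT8.35. The tetratricopeptide repeat genes Ttc41 and Ttc16 had 0.13 ± 0.04 at CT9.42 and 0.0846 ± 0.0358 at CT8.54. Prr15l, named for its proline-rich sequence, had 0.12 ± 0.04 at CT9.43 with an R squared of 0.813. BC051142 had 0.14 ± 0.04 at CT11.10, and its CT56 pool, at 7.546, lay just below that of CT44, at 7.551. Gldnos, named as the opposite-strand transcript of the gliomedin gene, had 0.11 ± 0.04 at CT10.89.

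Members make up 0.201% of all genes, and their counts on lists and in families were near that share. On 11 pathway lists, which covered the clock loop, clock kinases, genes under clock control in many tissues, chaperones, glucocorticoid targets, immediate early genes, cholesterol synthesis, the cell cycle, the extracellular matrix and odorant transduction, and on 18 cell type lists, there were 0 members among 255 measured genes, where that share gives 0.512, and the dusk clock list is barred by the rule itself. By family, 1 member each stood among 350 solute carriers (Slc35f4), 412 zinc finger genes (Zfp3) and 149 ion channel subunits (Kcnq1). There was also 1 each among 72 chaperone genes (Dnajb13), 124 chemokine and interleukin genes (Il18bp) and 186 genes taken by name as GTPase regulators (Rab13). That last family, set by patterns in gene names, does not take in Arf5. Among 224 transmembrane proteins named Tmem there were 2. Xenobiotic enzymes (156 measured), ribosomal proteins (67), oxidative phosphorylation subunits (89) and microRNA genes (302) had 0. Over all 17 families there were 8 members among 2731 measured genes, where the share of all genes gives 5.48. On the odorant transduction list, 20 of 20 genes were measured, 0 passed an adjusted p of 0.05 in the 24 h limma fit and 1 an unadjusted one.

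The comparison of the cycles was not part of the choice, although the rule bounds the scatter of the members. Within phases, 33 genes read lower in the second cycle and 7 higher. The median of second minus first cycle was -0.038, against a median of -0.0259 over all genes. The share of all genes that read lower in the second cycle was not counted. In limma 0 of 40 had an adjusted p under 0.05, as 0% of all genes did (lowest 0.0723 over all genes and 0.325 among members). At an unadjusted p under 0.05 there were 4 of 40, against 13.2% of all genes. These 4 were Aoc2 (-0.13 ± 0.05), Dlec1 (-0.13 ± 0.05), Carns1 (-0.12 ± 0.05) and Maml3 (-0.12 ± 0.05), all lower in the second cycle. Among genes with peaks from CT4 to before CT8, 38 of 47 were lower in the second cycle, and among those from CT16 to before CT24, 20 of 39.

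Each cycle was also fitted alone, as a description, over 6 pools. The peak fell in the window in 33 of 40 genes in the first cycle, in 31 in the second and in 24 in both. The joint fit of these same pools chose the genes, so peaks near the window are in part set by that choice. The median amplitude was 0.15 in the first cycle and 0.16 in the second, and 23 genes had the larger amplitude in the second. The peak moved from one cycle to the other by a median of 0.873 h in either direction, with extremes, second minus first, of -2.11 h and 2.76 h. Idua had the most unequal amplitudes of the 40 by their ratio, 0.14 and 0.0463. Prr15l, by contrast, peaked at CT9.42 and CT9.44 with amplitudes of 0.13 and 0.12.

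Membership of the set depended on single pools and on the scaling. Leaving out each pool in turn, 30 to 40 of the members stayed, and the number of genes that met the rule was 38 to 132. It was 132 without CT56, the pool that correlated least with the others, and 61 without CT40. In all 12 removals 16 members stayed, namely Cntd1, Slc35f4, Coro6, Kcnq1, Aoc2, Dmkn, F8, Adamts8, Shank2, Ttc41, Prr15l, Ogdhl, Tmem116, Tceal6, Il18bp and Firre. When each pool was centred on its median, 17 genes met the rule, all of them members. Of the other 23, 19 fell under the R squared limit and 4 moved out of the window. The 17 were Cntd1, Slc35f4, Dlec1, Derl3, Gpr155, Coro6, Ak8, Kcnq1, Aoc2, Dmkn, F8, Adamts8, Shank2, Prr15l, Ogdhl, Iqcd and Tceal6. Eomes and AA388235, with the largest amplitudes, were not among them, with a centred R squared of 0.609 and, for AA388235, a centred peak at CT7.85.

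**Figure D5:**
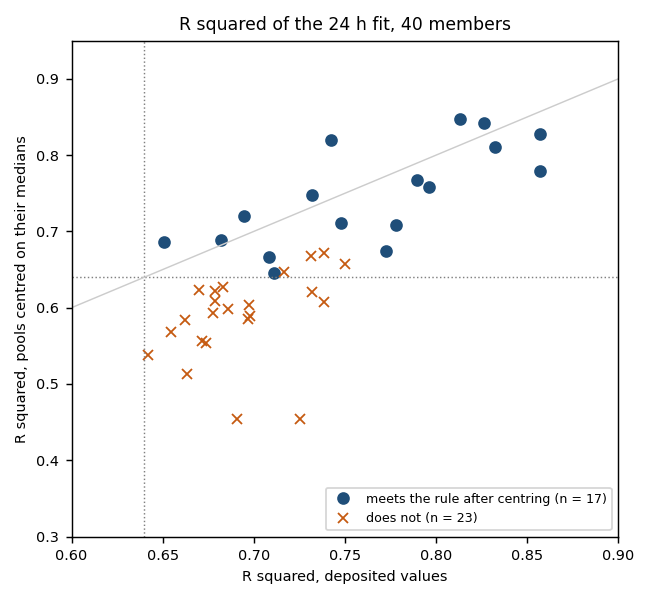
R squared of the 24 h fit on the deposited values (horizontal axis) and after centring each pool on its median (vertical axis) for the 40 members, with dotted lines at 0.64 and a grey line of equality. Filled circles are the 17 members that met the rule after centring, and crosses the 23 that did not, of which 4 lie above the dotted line with a peak outside the window.

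Each member was read by 1 probe except for 2. The second probe of Kif6 had an R squared of 0.0948 and a fitted peak at CT17.52, against 0.698 and CT8.12 for the probe that represents the gene, so its probes disagree. Shank2 had 2 further probes with R squared values of 0.241 and 0.453 and peaks at CT7.17 and CT8.50, earlier than the CT9.89 of the probe that represents it.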

How the data were processed

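Total RNA of 12 pools was amplified, tagged with biotin and put on Affymetrix arrays, per the labels' protocols. The authors deposited 1 value per probe and pool, read here as log2 intensity from its range. The tool affy is named in the submitters' processing notes, without a version, and the background correction and normalization were not given in the sources used here. No further scaling and no filter on dim probes was applied. Of 34760 probes, 21640 had 1 gene symbol in the platform annotation, 1321 had several and 11799 were not listed. Entrez IDs matched 21553 of them to RefSeq names, and 954 genes with more than 1 probe took the values of their highest-mean probe, which left 19937 genes. Apart from that choice, the ranking by mean level and the filters on dim genes, levels of different probes were not set against each other.

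In R 4.3.3, limma 3.58.1 fitted the 24 h cosine and sine to the 12 pools (9 residual degrees of freedom), tested by moderated F and adjusted by Benjamini-Hochberg across the whole table. The cycles were compared in limma with phase as a factor of 6 levels. Columns of no sample numbered 0. The fits were tested on simulated data. Promoter letters were searched in Python 3.11.15, and figures drawn with matplotlib 3.10.9.

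The members, the gene lists and the roles were chosen with earlier results of these data known. All members are named. Readings in all 12 pools are given for the 16 with the largest amplitude and the 6 with the highest mean level. Sequences are given for at most 6 members that hold the E-box, those of them with the largest amplitudes. Members without the E-box, Eomes among them, are not shown. The alternatives were quantile normalization, median centring, filters on dim genes at the 25th and 50th percentile, the mean of all probes, array weights, a linear trend, periods of 22 and 26 h, 12 h terms, R squared limits of 0.5 and 0.8, a trended robust variance prior, other forms of the cycle comparison and leaving out each pool.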

Additional observations from a re-analysis of the deposited data

How the results depend on the processing

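The number of genes that met the rule, 40 on the deposited values, was 10 with a period of 26 h and 17 with median centring. It was 85 with 12 h terms added to the fit, 121 with an R squared limit of 0.5 and 5 with one of 0.8 (Coro6, Gpr155, Cntd1, Slc35f4 and Prr15l). With 12 h terms or a linear trend in the fit, R squared was taken over the variance that these left, a different measure from the main one. The number of genes ranged from 38 to 132 when each pool was left out in turn. The other alternatives gave 27 to 51 genes, and a count near 40 did not mean the same genes: quantile normalization gave 40 genes of which 27 were members, and a period of 22 h gave 48 of which 17 were. In limma, 0 members passed an adjusted p of 0.05 in the 24 h fit or between the cycles, and 0 did under each alternative run. The comparison of the cycles pairs the 2 pools of a phase, and without the phase factor the count of members called between the cycles was 0 as well. Each time point is 1 pool on 1 array, the scaling behind the deposited values is unknown, and the set is bounded by limits on R squared and peak time that cut through a continuous run of genes.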

Other observations

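Among the 13120 probes without a single gene symbol, 58 reached an R squared of 0.64 and 16 of these had their fitted peak from CT8 to before CT12. Of the 16, 3 are listed with several symbols, and the others are not listed in the platform annotation and are unnamed here.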
